A study of Arabidopsis thaliana with 18 samples.

Results

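The Aux/IAA repressors and the GH3 auxin-conjugating enzymes of Arabidopsis thaliana were followed in seedlings in which a PLETHORA (PLT) transcription factor was induced. The members were listed by locus, 29 Aux/IAA genes and 8 GH3 genes, and each was read from the probe set named by that locus. Of the 37 listed genes, 34 had a row (28 Aux/IAA and 6 GH3) among 21430 probe sets named by locus. IAA15, GH3.2 and GH3.4 had no row and are not analysed here.

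Aux/IAA proteins are short-lived nuclear repressors. They bind auxin response factors (ARFs), recruit TOPLESS corepressors, and are degraded when auxin brings them to the TIR1/AFB F-box receptors. GH3 enzymes of the auxin-conjugating kind join indole-3-acetic acid to amino acids and so lower the pool of free auxin. Many genes of both families are themselves induced by auxin, so that their products form negative feedback on the pathway, and in seedlings they are best known from root, hypocotyl and vascular development. PLT proteins are AP2-domain transcription factors of the root stem cell niche and of young organs.

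Total RNA of whole seedlings was hybridised to 18 single-colour arrays, each called a library here. In the dex groups, seedlings carrying a 35S-driven fusion of PLT1, PLT3, PLT4, PLT5 or PLT7 to the glucocorticoid receptor (GR) domain were given 10 µM dexamethasone (dex) for 6 h, which lets the fusion enter the nucleus. The mock group was the 35S-PLT4-GR line given DMSO for the same 6 h. Seedlings were 4 days old when about 50 of them were moved to each flask of liquid medium, and dex or DMSO was added after a night of culture. By the labels, PLT3 has 2 libraries, mock has 4 and each of the other 4 groups has 3. All groups, mock included, carry a PLT-GR transgene under the 35S promoter, which is active in most cells, and the labels do not say whether a line is 1 insertion. Only the PLT4 line had a mock of its own, so that in the other 4 lines the line and the dex treatment cannot be told apart, and no library shows dex without a PLT fusion. The replicates were separate flasks per the labels' protocols, which count 3 mock flasks for the 4 mock libraries.

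One library went against its label. In the library labelled PLT1 replicate 3 the PLT1 probe set read 3.5 (log2), whereas replicates 1 and 2 read 11.00 and 11.08. That library instead had PLT2 at 10.28, against 3.67 to 6.07 in the other 17 libraries. Its mean correlation with its own group was 0.968, against 0.991 to 0.997 in the others, and its actin 3′ minus 5′ difference was 2.67, against 1.08 to 1.64. Results below come from the 17 other libraries, with counts and changed calls against mock also given for all 18. Adding that library changes no group mean outside PLT1, but it alters the spread estimate that all groups share. The induced gene was high in each other line, with PLT3 at 10.91 ± 0.06 (SD, n = 2), PLT5 at 11.20 ± 0.07 and PLT7 at 11.01 ± 0.11 (SD, n = 3 each) in their own lines, and PLT4 at 10.76 ± 0.08 (SD, n = 3) in PLT4 dex and 11.47 ± 0.08 (SD, n = 4) in mock. In 2 libraries another PLT gene was above the rest of the group, PLT2 at 6.07 in PLT5 replicate 3 (3.95 and 4.06 in the other PLT5 libraries) and PLT3 at 6.49 in PLT7 replicate 1 (4.40 and 4.63 in the other PLT7 libraries). The PLT4 probe set also varied between whole lines, with group means of 7.415 in PLT1, 6.70 in PLT7, 6.21 in PLT3 and 4.77 in PLT5. Mock carries the PLT4 fusion and so gives no baseline for this gene. Array medians lay between 5.7 and 5.8, and the small number of arrays per group limits the precision of every value.

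Members of both families were both higher and lower in the induced lines than in mock. In the mean of the 5 dex lines, 9 of 34 members were called higher and 12 lower (limma with Benjamini-Hochberg adjustment over all probe sets, adjusted p under 0.05), which is 21 called where 50.1% of all probe sets were called (25.9% higher and 24.2% lower). Aux/IAA genes split evenly, with 8 of 28 higher and 8 lower, whereas 1 of 6 GH3 genes was higher and 4 were lower. The median absolute change in the mean of the 5 lines was 0.247 log2 for the 28 Aux/IAA genes, 0.898 for the 6 GH3 genes and 0.416 for all 34, against 0.181 over all probe sets. The median signed change was −0.075 for the 34 members and −0.838 for the 6 GH3 genes, against 0.007 over all probe sets. With all 18 libraries, 19 members were called, beside 45.4% of all probe sets, and IAA8 and IAA26 did not pass (adjusted p = 0.0791 and 0.0553).

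Line by line, PLT1 had 26 called members, 11 higher and 15 lower, beside 50.8% of all probe sets called (27.8% higher, 23% lower). PLT7 had 24, 12 in each direction, beside 47.5% (25.2% higher, 22.4% lower). PLT4 had 19, 10 higher and 9 lower, beside 39.5% (20.5% higher, 19% lower). PLT5 had 16, 5 higher and 11 lower, beside 29.3% (14.2% higher, 15.1% lower). PLT3 had 13, 5 higher and 8 lower, beside 31.6% (15.9% higher, 15.7% lower). In this order of lines the called share of the members was 76.5%, 70.6%, 55.9%, 47.1% and 38.2%. Each was above the share of all probe sets in its line, but the excess was not tested. The margin was smallest in PLT3 (38.2% against 31.6%), where 10 of 28 Aux/IAA genes were called (35.7%). Most members also had a mean level above the median of all probe sets, and the shares were not compared at matched level. With all 18 libraries the counts were 25 for PLT1, 22 for PLT7, 16 for PLT4, 12 for PLT5 and 12 for PLT3, beside 48.3%, 43.2%, 33.7%, 22.9% and 25.6% of all probe sets. All 5 comparisons share the same 4 mock libraries, so calls in several lines are not independent of each other. In bulk seedlings, fewer cells of a type and less RNA per cell cannot be told apart.

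**Figure D1:**
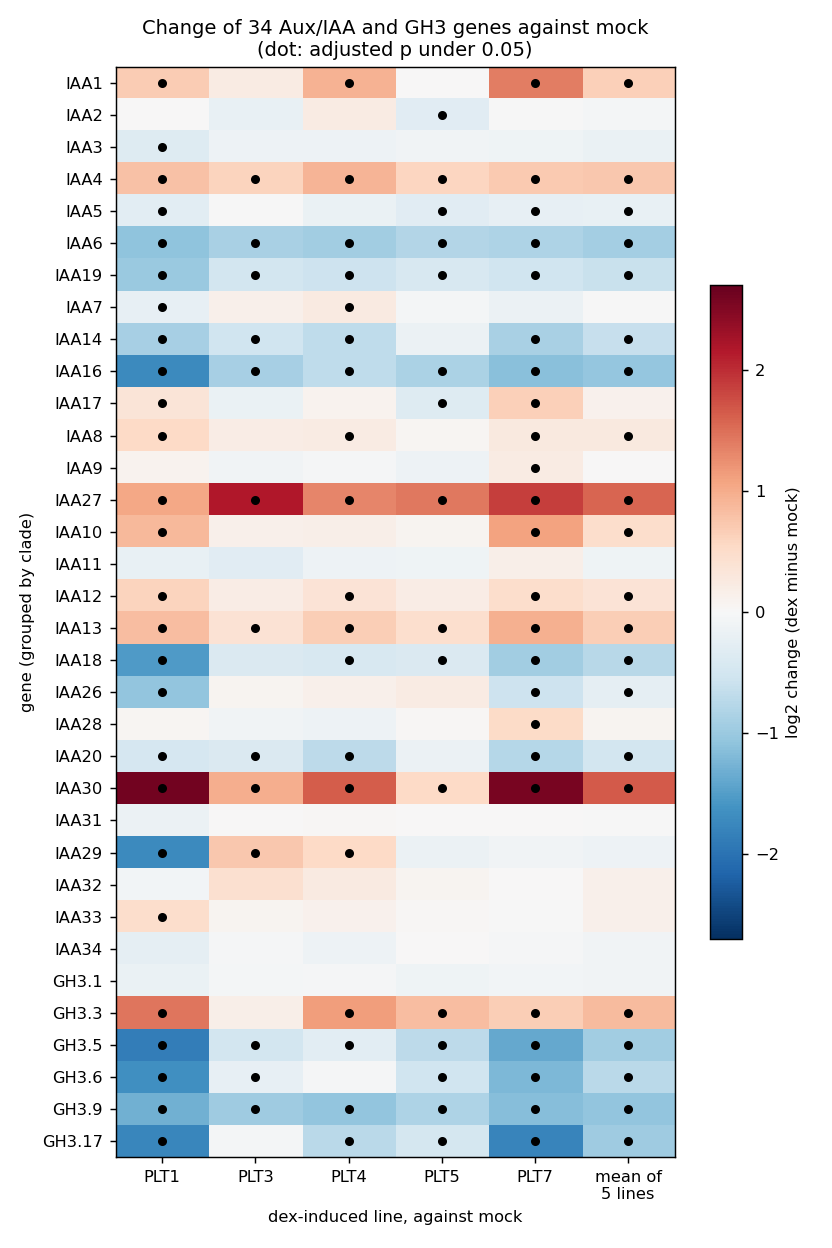
Log2 change of each of the 34 members against mock in each dex line and in the mean of the 5 lines, with a dot on each called change (17 libraries). IAA27 and IAA30 were higher in every line, IAA16, IAA6 and GH3.9 were lower in every line, and IAA29 ran from −1.72 in PLT1 to 0.72 in PLT3.

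IAA27 and IAA30 had the largest rises among the members in the mean of the 5 lines. IAA27 (AT4G29080), also known as PHYTOCHROME-ASSOCIATED PROTEIN 2, acts in root growth and branching. It stood at 7.79 and 7.71 in PLT1, 8.75 and 8.99 in PLT3, 8.08, 7.99 and 8.01 in PLT4, 8.22, 8.14 and 8.04 in PLT5 and 8.58, 8.57 and 8.56 in PLT7, against 6.58, 6.70, 6.65 and 6.88 in mock. Every dex library was above every mock library, and of the lines only PLT4 and PLT5 overlapped. IAA27 rose 2.97-fold in the mean of the 5 lines (1.57 ± 0.06 log2, SE, adjusted p = 1.11e-12), and most in PLT3, by 4.49-fold (2.17 ± 0.09, adjusted p = 3.17e-11). The order of its levels was PLT3, PLT7, PLT5, PLT4, PLT1 and mock, and of the neighbours in that order only PLT5 and PLT4 were not called different (adjusted p = 0.562). PLT3 and PLT7 (adjusted p = 0.332) and PLT7 and PLT5 (adjusted p = 0.0527) were not called different either with all 18 libraries. The library labelled PLT1 replicate 3 read 7.03, and with it the change in PLT1 was 0.81 ± 0.14, against 1.05 ± 0.09 without it.

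Its closest relatives, IAA8 and IAA9, which are broadly expressed, moved less. IAA8 was called higher in PLT1 (0.54 ± 0.09), PLT4 (0.22 ± 0.08) and PLT7 (0.26 ± 0.08), while PLT3 (0.21, adjusted p = 0.102) and PLT5 (0.05, adjusted p = 0.749) did not pass. IAA9 was called in PLT7 (0.23 ± 0.09, adjusted p = 0.0464), and its changes in the other lines lay between −0.14 and 0.09. With all 18 libraries the IAA8 calls in PLT4 and PLT7 (adjusted p = 0.223 and 0.112) and the IAA9 call (adjusted p = 0.125) were not made.

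IAA30 (AT3G62100) belongs to a small clade with IAA20 and IAA31. It encodes a protein without the degron that TIR1/AFB receptors bind, which is longer-lived than most Aux/IAA proteins. It read 7.36 and 7.42 in PLT1, 5.74 and 5.78 in PLT3, 6.26, 6.57 and 6.42 in PLT4, 5.42, 5.22 and 5.32 in PLT5 and 7.26, 7.62 and 7.15 in PLT7, against 4.97, 4.66, 4.80 and 4.70 in mock. All 13 dex libraries were above mock, with PLT1 and PLT7 well above PLT4 and PLT5 closest to mock. The rise was 6.08-fold in PLT1 (2.60 ± 0.12, adjusted p = 8.14e-12), 5.89-fold in PLT7 (2.56 ± 0.11, adjusted p = 3.9e-12), 3.103-fold in PLT4 (1.63 ± 0.11, adjusted p = 2.9e-09), 1.97-fold in PLT3 (0.98 ± 0.12, adjusted p = 8.13e-06) and 1.45-fold in PLT5 (0.53 ± 0.11, adjusted p = 0.000986). PLT1 and PLT7 were not called different from each other (adjusted p = 0.866), nor were PLT3 and PLT5 (adjusted p = 0.0992), and the other 8 pairs of lines were. PLT1 against PLT4 (adjusted p = 0.121) and PLT3 against PLT4 (adjusted p = 0.353) did not pass either with all 18 libraries. The library labelled PLT1 replicate 3 read 6.17, and with it the PLT1 change was 2.20 ± 0.22 and the PLT5 rise no longer passed (adjusted p = 0.0946).

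IAA20 went the other way. It was called lower in PLT1 (−0.46 ± 0.12), PLT3 (−0.40 ± 0.12), PLT4 (−0.70 ± 0.11) and PLT7 (−0.77 ± 0.11), and its change in PLT5 was −0.16 (adjusted p = 0.312). Its mean change, −0.497 (adjusted p = 4.2e-05), lay just under the 0.5 log2 at which values of every library are printed. IAA31, the third gene of the clade, had group means between 3.28 and 3.48 in every group and was not called in any line. Values that low are compressed by RMA, the array normalisation that the submitters name, so that small changes there may be missed.

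IAA16 (AT3G04730) had the largest fall among the Aux/IAA genes in the mean of the 5 lines. It belongs to the clade of IAA7/AXR2, IAA14/SOLITARY-ROOT and IAA17/AXR3, which are known from dominant mutants with altered root growth, gravitropism and lateral roots. IAA16 read 7.88 and 7.90 in PLT1, 8.71 and 8.71 in PLT3, 8.996, 8.84 and 8.95 in PLT4, 8.77, 8.80 and 8.72 in PLT5 and 8.40, 8.62 and 8.42 in PLT7, against 9.76, 9.64, 9.47 and 9.55 in mock. No dex library reached mock. IAA16 was 2.07-fold lower in the mean of the 5 lines (−1.05 ± 0.06, adjusted p = 1.05e-10) and 3.29-fold lower in PLT1 (−1.72 ± 0.09, adjusted p = 3.09e-11). PLT7 followed at −1.13 ± 0.08, and PLT3, PLT5 and PLT4 lay at −0.90, −0.85 and −0.68 with no pair of these 3 called different. The library labelled PLT1 replicate 3 read 6.82, below all others, and with it the change in PLT1 was −2.07 ± 0.18.

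IAA14 (AT4G14550), a repressor of lateral root initiation, fell in 4 of the 5 lines. It read 4.97 and 5.31 in PLT1, 5.62 and 5.39 in PLT3, 5.41, 5.39 and 5.27 in PLT4, 5.84, 6.01 and 5.79 in PLT5 and 5.22, 5.07 and 5.20 in PLT7, against 6.06, 6.19, 5.97 and 5.95 in mock. PLT5 overlapped mock and the other lines did not. The falls were −0.90 ± 0.11 in PLT1, −0.88 ± 0.09 in PLT7, −0.68 ± 0.09 in PLT4 and −0.54 ± 0.11 in PLT3, with adjusted p between 4.52e-07 and 0.000781. The change in PLT5 was −0.16 ± 0.09 (adjusted p = 0.23).

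IAA17 (AT1G04250) was called in opposite directions in different lines. It read 9.46 and 9.32 in PLT1, 8.86 and 8.88 in PLT3, 9.13, 9.24 and 9.08 in PLT4, 8.57, 8.78 and 8.72 in PLT5 and 9.67, 9.67 and 9.73 in PLT7, against 9.13, 9.16, 8.94 and 8.96 in mock. PLT7 and PLT1 lay above mock, PLT4 overlapped it, and PLT3 and PLT5 lay below it. The rises were 0.64 ± 0.08 in PLT7 (adjusted p = 1.96e-06) and 0.34 ± 0.09 in PLT1 (adjusted p = 0.00324), PLT5 fell by 0.36 ± 0.08 (adjusted p = 0.00176), and PLT3 (−0.18, adjusted p = 0.137) and PLT4 (0.10, adjusted p = 0.34) did not pass. The PLT1 and PLT5 calls were not made when the library labelled PLT1 replicate 3 was included. It read 7.997, and with it PLT1 was at −0.12 ± 0.23 (adjusted p = 0.696), PLT5 at an adjusted p of 0.311 and PLT7 at 0.0335. Without PLT1 replicate 1 the PLT1 rise was 0.27 (adjusted p = 0.0595).

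IAA7 (AT3G23050) moved least in this clade. It read 10.35 and 10.30 in PLT1, 10.77 and 10.61 in PLT3, 10.78, 10.71 and 10.85 in PLT4, 10.56, 10.55 and 10.40 in PLT5 and 10.39, 10.45 and 10.32 in PLT7, against 10.53, 10.67, 10.54 and 10.43 in mock. PLT1 lay just below mock and PLT4 just above it. The changes were −0.22 ± 0.08 in PLT1 (adjusted p = 0.0383) and 0.23 ± 0.07 in PLT4 (adjusted p = 0.0181). Neither call held throughout. The PLT1 call did not pass without mock replicate 1, 2 or 3 (adjusted p = 0.0508, 0.098 and 0.0538) or PLT1 replicate 1 or 2 (0.0909 and 0.167), and the PLT4 call did not pass without mock replicate 4 (0.054) or PLT4 replicate 3 (0.0875).

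**Figure D2:**
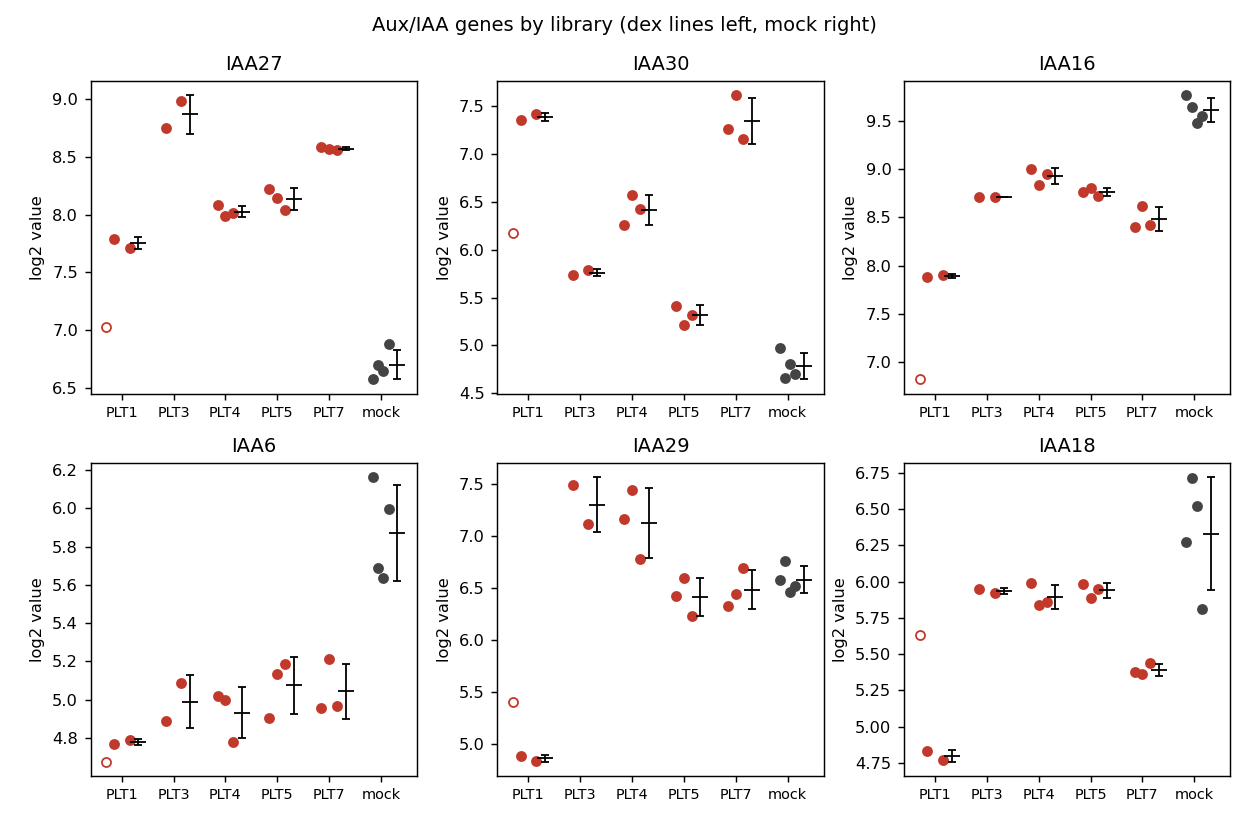
Log2 value of 6 Aux/IAA genes in each library, with the dex lines left of mock, where filled points are the 17 libraries used, open circles the library labelled PLT1 replicate 3, and dashes with bars the mean ± SD. IAA27 and IAA30 lay above mock in every dex library used, IAA16 and IAA6 below it, and IAA29 and IAA18 were lowest in PLT1.

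Some Aux/IAA genes of different clades lie side by side in the genome. Per the TAIR10.1 gene table, IAA1 and IAA14 (chromosome 4), IAA2 and IAA7 (chromosome 3) and IAA3 and IAA17 (chromosome 1) each have 1 annotated gene between them and no protein-coding gene. IAA1 was called higher and its neighbour IAA14 lower in PLT1, PLT4 and PLT7, and in PLT3 IAA14 was called lower while IAA1 was not called. In PLT7, IAA1 rose by 1.38 ± 0.11 and IAA14 fell by 0.88 ± 0.09. IAA2 and IAA7 were not called in the same line, and IAA3 was called in PLT1 alone (−0.35 ± 0.12, adjusted p = 0.0207). The difference between neighbours was not tested.

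IAA1 (AT4G14560), an early auxin-induced gene, read 6.66 and 6.72 in PLT1, 6.35 and 6.11 in PLT3, 7.01, 7.06 and 6.76 in PLT4, 5.95, 5.98 and 6.10 in PLT5 and 7.18, 7.46 and 7.52 in PLT7, against 6.26, 5.94, 5.90 and 5.92 in mock. PLT1, PLT4 and PLT7 lay above all mock libraries, and PLT3 and PLT5 overlapped mock. The rises were 2.60-fold in PLT7 (adjusted p = 7.95e-09), 1.91-fold in PLT4 (0.94 ± 0.11, adjusted p = 1.75e-06) and 1.61-fold in PLT1 (0.68 ± 0.12, adjusted p = 0.000121). PLT3 (0.22, adjusted p = 0.186) and PLT5 (0.00, adjusted p = 0.987) did not pass, and PLT7 was called higher than each other line, though not than PLT4 with all 18 libraries (adjusted p = 0.0872).

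IAA4 (AT5G43700), of the same clade, rose in all 5 lines by similar amounts. It read 8.99 and 8.91 in PLT1, 8.72 and 8.79 in PLT3, 9.05, 9.07 and 9.09 in PLT4, 8.85, 8.76 and 8.62 in PLT5 and 8.78, 8.97 and 8.83 in PLT7, against 8.23, 8.27, 8.03 and 8.09 in mock. All 13 dex libraries were above mock. The rises lay between 0.59 (PLT5) and 0.91 (PLT4), with a mean of 0.72 ± 0.06 (adjusted p = 1.3e-08). The lines differed in the F test among the 5 (adjusted p = 0.0281), a call that did not hold with all 18 libraries (adjusted p = 0.244). IAA2 was called in PLT5 (−0.30 ± 0.10, adjusted p = 0.0308, and 0.134 with all 18 libraries), and its changes in the other lines lay between −0.19 and 0.22. IAA3, also called SHY2 and known for its part in root meristem size, was called in PLT1 as given above, and its changes in the other lines lay between −0.14 and −0.10.

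**Figure D3:**
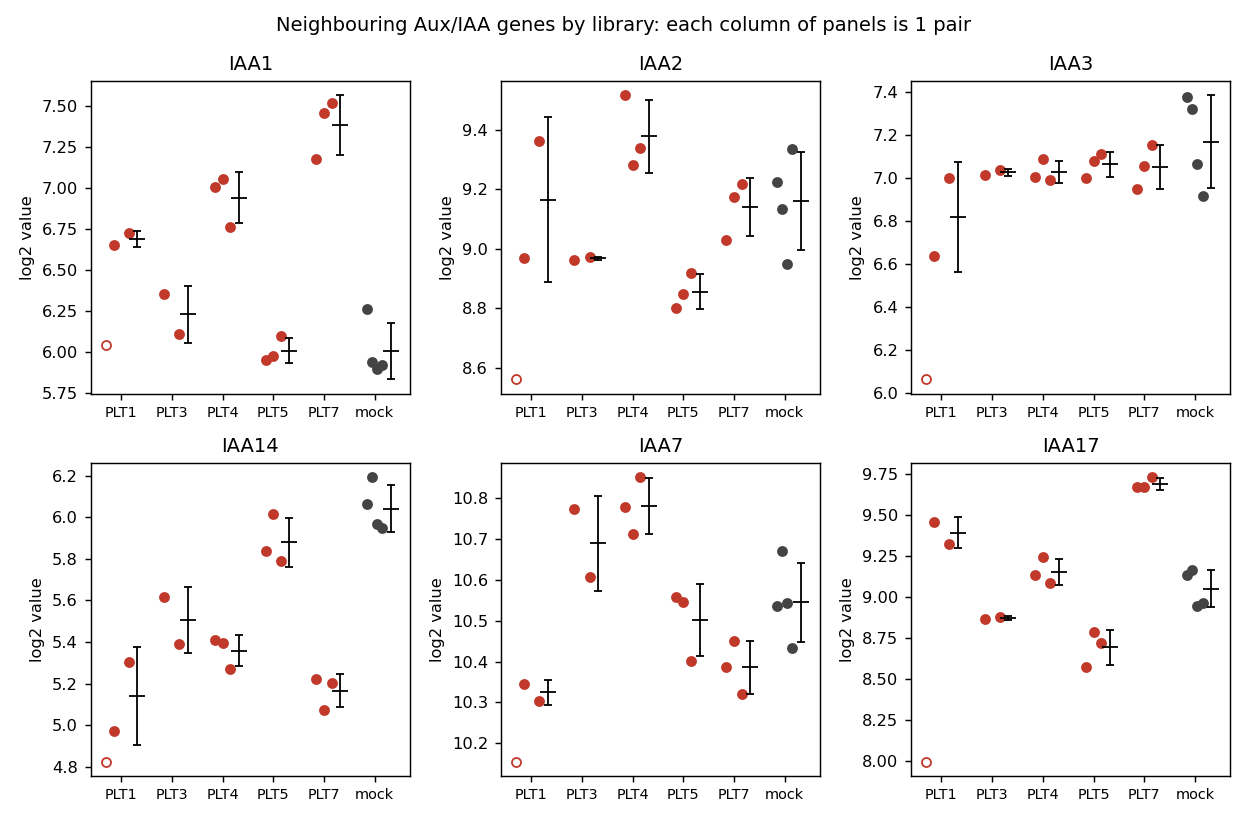
Log2 values by library of the 3 pairs of neighbouring Aux/IAA genes, dex lines left of mock, with symbols as in the plot of 6 Aux/IAA genes. IAA1 was highest in PLT7, where all 3 values were at or above 7.18, while its neighbour IAA14 was there at 5.22 or below.

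The clade of IAA10 to IAA13 rose where it moved. IAA12/BODENLOS and IAA13 restrain ARF5/MONOPTEROS in the embryonic root. IAA13 (AT2G33310) read 8.61 and 8.74 in PLT1, 8.25 and 8.25 in PLT3, 8.58, 8.45 and 8.53 in PLT4, 8.44, 8.35 and 8.15 in PLT5 and 8.77, 8.87 and 8.76 in PLT7, against 8.06, 7.86, 7.75 and 7.73 in mock. Every dex library was above every mock library. The rise was 0.66 ± 0.07 in the mean of the 5 lines (adjusted p = 1.46e-07), from 0.40 in PLT3 to 0.95 in PLT7, and each line passed on its own. IAA12 was called higher in PLT1 (0.60 ± 0.11), PLT4 (0.37 ± 0.09) and PLT7 (0.47 ± 0.09), with PLT3 at 0.20 (adjusted p = 0.168) and PLT5 at 0.20 (adjusted p = 0.135).

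IAA10 rose in PLT7 (2.11-fold, 1.08 ± 0.10, adjusted p = 7.48e-08) and PLT1 (1.85-fold, 0.89 ± 0.11, adjusted p = 3.28e-06). In the other 3 lines its changes lay between 0.07 and 0.15 and overlapped mock. IAA10 also differed among the 5 lines themselves (F test, adjusted p = 9.96e-07). IAA11 was not called in any line, with changes from −0.30 to 0.17.

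In the clade of IAA18, IAA26 and IAA28, which act in early embryo patterning and lateral root positioning, the deepest falls were in PLT1. IAA18 (AT1G51950) read 4.83 and 4.77 in PLT1, 5.95 and 5.92 in PLT3, 5.99, 5.84 and 5.86 in PLT4, 5.98, 5.89 and 5.95 in PLT5 and 5.37, 5.36 and 5.44 in PLT7, against 6.28, 6.71, 6.52 and 5.81 in mock. PLT1 and PLT7 lay below all mock libraries, and the other 3 lines lay between mock replicate 4 and the other mock libraries. IAA18 was 2.89-fold lower in PLT1 (−1.53 ± 0.16, adjusted p = 2.28e-07) and 1.92-fold lower in PLT7 (−0.94 ± 0.14, adjusted p = 1.97e-05).

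The smaller falls of IAA18 in PLT4 (−0.43 ± 0.14, adjusted p = 0.0188) and PLT5 (−0.39 ± 0.14, adjusted p = 0.043) did not hold with all 18 libraries (adjusted p = 0.0965 and 0.17). They also did not pass without mock replicate 2 (adjusted p = 0.0638 in PLT4 and 0.137 in PLT5) or mock replicate 3 (0.0521 and 0.106). Without PLT4 replicate 2 or 3 the PLT4 fall had an adjusted p of 0.0641 or 0.0593. The PLT5 fall had an adjusted p between 0.05 and 0.137 when any 1 library was left out, except mock replicate 4, and of 0.113 without both PLT5 replicate 3 and PLT7 replicate 1. IAA26 was lower in PLT1 (−1.06 ± 0.13, adjusted p = 2.75e-06) and PLT7 (−0.56 ± 0.12, adjusted p = 0.000681), and in PLT3, PLT4 and PLT5 its changes were 0.07, 0.14 and 0.21 and did not pass. IAA28 was higher in PLT7 (0.52 ± 0.12, adjusted p = 0.00125), and the other lines lay between −0.14 and 0.05.

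IAA6 and IAA19, from the clade of IAA5, IAA6, IAA15 and IAA19, fell in all 5 lines. IAA6 (AT1G52830), known as SHY1 from a hypocotyl mutant, read 4.77 and 4.79 in PLT1, 4.89 and 5.09 in PLT3, 5.02, 5.00 and 4.78 in PLT4, 4.90, 5.13 and 5.19 in PLT5 and 4.95, 5.21 and 4.97 in PLT7, against 6.16, 5.69, 5.64 and 6.00 in mock. All dex libraries were below mock by a clear gap. IAA6 was 1.88-fold lower in the mean of the 5 lines (−0.91 ± 0.09, adjusted p = 1.32e-07), and no difference among the lines was called (F test, adjusted p = 0.445; line changes from −1.09 to −0.80).

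IAA19/MSG2 (AT3G15540), which acts with ARF7 in hypocotyl tropisms, read 6.25 and 6.51 in PLT1, 6.96 and 6.81 in PLT3, 6.92, 6.89 and 6.64 in PLT4, 6.76, 7.10 and 6.95 in PLT5 and 6.83, 6.90 and 6.81 in PLT7, against 7.54, 7.40, 7.07 and 7.50 in mock. PLT5 overlapped mock through 1 library and the other lines did not overlap it. The mean fall was −0.61 ± 0.09 (adjusted p = 9.65e-06), and the fall in PLT1 was −0.998 ± 0.13 (adjusted p = 3.62e-06). Without PLT3 replicate 2 the fall in PLT3 did not pass (adjusted p = 0.0891), and without PLT5 replicate 1 that in PLT5 did not (adjusted p = 0.0528). IAA5 was lower in PLT1 (−0.29 ± 0.09), PLT5 (−0.30 ± 0.08) and PLT7 (−0.22 ± 0.08), at group means between 3.83 and 4.13.

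IAA29 (AT4G32280) had the widest span of group means among the 5 lines, 2.44 log2 from PLT1 to PLT3. It is induced by PIF factors in shade and warmth, and its degron differs from the usual one. It read 4.89 and 4.84 in PLT1, 7.49 and 7.12 in PLT3, 7.17, 7.44 and 6.78 in PLT4, 6.43, 6.60 and 6.23 in PLT5 and 6.33, 6.44 and 6.69 in PLT7, against 6.58, 6.76, 6.46 and 6.52 in mock. PLT1 lay far below mock, PLT3 and PLT4 lay above it, and PLT5 and PLT7 overlapped it. IAA29 was 3.28-fold lower in PLT1 (−1.72 ± 0.16, adjusted p = 5.56e-08), 1.65-fold higher in PLT3 (0.72 ± 0.16, adjusted p = 0.00171) and 1.46-fold higher in PLT4 (0.55 ± 0.14, adjusted p = 0.00415). Without PLT3 replicate 1 the rise in PLT3 was 0.54 (adjusted p = 0.0632). Between lines, PLT1 minus PLT3 was −2.44 ± 0.18 and PLT1 minus PLT4 was −2.26 ± 0.17 log2. The library labelled PLT1 replicate 3 read 5.41, also below mock, and with it the PLT1 change was −1.53 ± 0.16.

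Of the remaining atypical genes, IAA33 alone was called with 17 libraries. IAA32 had its largest change in PLT3 (0.44), with values of 4.80 and 4.89 against 4.21 to 4.62 in mock, but was not called there. IAA33, which lacks the degron, was called in PLT1 (0.48 ± 0.13, adjusted p = 0.00562), a call lost with all 18 libraries (adjusted p = 0.075). IAA32 and IAA34 were not called in any line with 17 libraries, and with 18 IAA34 was called lower in PLT1 (−0.26 ± 0.09, adjusted p = 0.0245, against −0.24 ± 0.10 and 0.0593 with 17).

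Of the GH3 genes, GH3.3 was higher and GH3.5, GH3.6, GH3.9 and GH3.17 were lower in the mean of the 5 lines. GH3.3, GH3.5 and GH3.6 are auxin-induced enzymes known to act together in adventitious rooting. GH3.3 (AT2G23170) read 9.42 and 9.17 in PLT1, 8.17 and 7.86 in PLT3, 8.74, 9.08 and 9.09 in PLT4, 8.83, 8.69 and 8.52 in PLT5 and 8.47, 8.52 and 8.56 in PLT7, against 7.99, 7.78, 7.86 and 7.76 in mock. Every line except PLT3 lay above mock. The rises were 2.74-fold in PLT1 (1.45 ± 0.12, adjusted p = 1.52e-08), 2.18-fold in PLT4 (1.12 ± 0.11, adjusted p = 2.02e-07), 1.78-fold in PLT5 (0.84 ± 0.11) and 1.59-fold in PLT7 (0.67 ± 0.11). In PLT3 the change was 0.17 ± 0.12 (adjusted p = 0.344).

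GH3.6/DFL1 (AT5G54510), a gene whose overexpression shortens hypocotyls, separated the lines, with the smallest F test p of the 34 members (adjusted p = 4.39e-10). It read 7.31 and 7.33 in PLT1, 8.85 and 8.66 in PLT3, 9.01, 8.97 and 8.86 in PLT4, 8.48, 8.50 and 8.36 in PLT5 and 7.71, 7.72 and 7.89 in PLT7, against 8.99, 8.92, 8.98 and 9.02 in mock. PLT1, PLT7 and PLT5 each formed a separate step below mock, and PLT4 overlapped mock. GH3.6 was 3.16-fold lower in PLT1 (−1.66 ± 0.08, adjusted p = 1.76e-11), 2.31-fold lower in PLT7 (−1.21 ± 0.07, adjusted p = 3.1e-10) and 1.44-fold lower in PLT5 (−0.53 ± 0.07, adjusted p = 2.78e-05). PLT4 was at −0.03 (adjusted p = 0.798). The fall in PLT3 (−0.22 ± 0.08, adjusted p = 0.0475) was at the threshold and did not pass with all 18 libraries (adjusted p = 0.0815) or without PLT3 replicate 2 (−0.13, adjusted p = 0.444) or mock replicate 1, 3 or 4 (0.0731, 0.0671 and 0.0848). Leaving out replicate 1 or 2 of PLT1, PLT4, PLT5 or PLT7 gave an adjusted p between 0.0515 and 0.0572, and leaving out both PLT5 replicate 3 and PLT7 replicate 1 gave 0.0577.

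GH3.5/WES1 (AT4G27260), which also conjugates salicylic acid, read 5.81 and 5.39 in PLT1, 7.03 and 6.89 in PLT3, 7.21, 7.06 and 7.22 in PLT4, 6.75, 6.92 and 6.60 in PLT5 and 6.27, 5.96 and 6.00 in PLT7, against 7.56, 7.28, 7.59 and 7.40 in mock. All 13 dex libraries lay below mock, and PLT1 and PLT7 lay below the other 3 lines. GH3.5 was 3.63-fold lower in PLT1 (−1.86 ± 0.13, adjusted p = 1.33e-09) and 2.60-fold lower in PLT7 (−1.38 ± 0.11, adjusted p = 1.57e-08), with PLT5 at −0.70 ± 0.11 (adjusted p = 0.000143) and PLT3 at −0.50 ± 0.13 (adjusted p = 0.00562). The PLT3 fall did not pass without PLT3 replicate 2 (adjusted p = 0.0808). The fall in PLT4 (−0.29 ± 0.11, adjusted p = 0.0498) was at the threshold, with an adjusted p of 0.0742 with all 18 libraries and between 0.0532 and 0.176 without any 1 of mock replicates 1, 3 and 4, PLT4 replicates 1, 2 and 3, PLT3 replicates 1 and 2, PLT5 replicate 1 and PLT7 replicates 2 and 3.

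GH3.17 (AT1G28130), an enzyme that favours glutamate and sets the level of free auxin in seedlings, read 6.03 and 5.16 in PLT1, 7.27 and 7.32 in PLT3, 6.73, 6.60 and 6.53 in PLT4, 6.88, 7.00 and 6.75 in PLT5 and 5.67, 5.48 and 5.58 in PLT7, against 7.47, 7.27, 7.15 and 7.52 in mock. PLT3 overlapped mock, PLT4 and PLT5 lay below it, and PLT1 and PLT7 were lowest. It was 3.43-fold lower in PLT7 (−1.78 ± 0.15, adjusted p = 1.63e-08) and 3.38-fold lower in PLT1 (−1.76 ± 0.17, adjusted p = 7.66e-08), with PLT4 at −0.73 ± 0.15 (adjusted p = 0.000573) and PLT3 at −0.06 (adjusted p = 0.851). The PLT5 fall of −0.48 ± 0.15 (adjusted p = 0.0198) did not pass without PLT5 replicate 1 or 3 (0.0555 and 0.0915) or mock replicate 1 or 4 (0.0511 and 0.0518), or without both PLT5 replicate 3 and PLT7 replicate 1 (0.106).

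GH3.9 (AT2G47750), known from a mutant with longer primary roots, fell in all 5 lines. It read 3.95 and 3.64 in PLT1, 4.26 and 3.99 in PLT3, 4.16, 3.91 and 4.02 in PLT4, 4.22, 4.38 and 4.18 in PLT5 and 3.88, 4.17 and 3.78 in PLT7, against 5.31, 4.81, 5.37 and 4.89 in mock. Every dex library lay below every mock library, at values where the normalisation compresses differences. The mean fall was −1.06 ± 0.10 (adjusted p = 9.93e-08), and the lines were not called different (F test, adjusted p = 0.172). GH3.1 was not called in any line, with group means between 3.71 and 3.89.

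**Figure D4:**
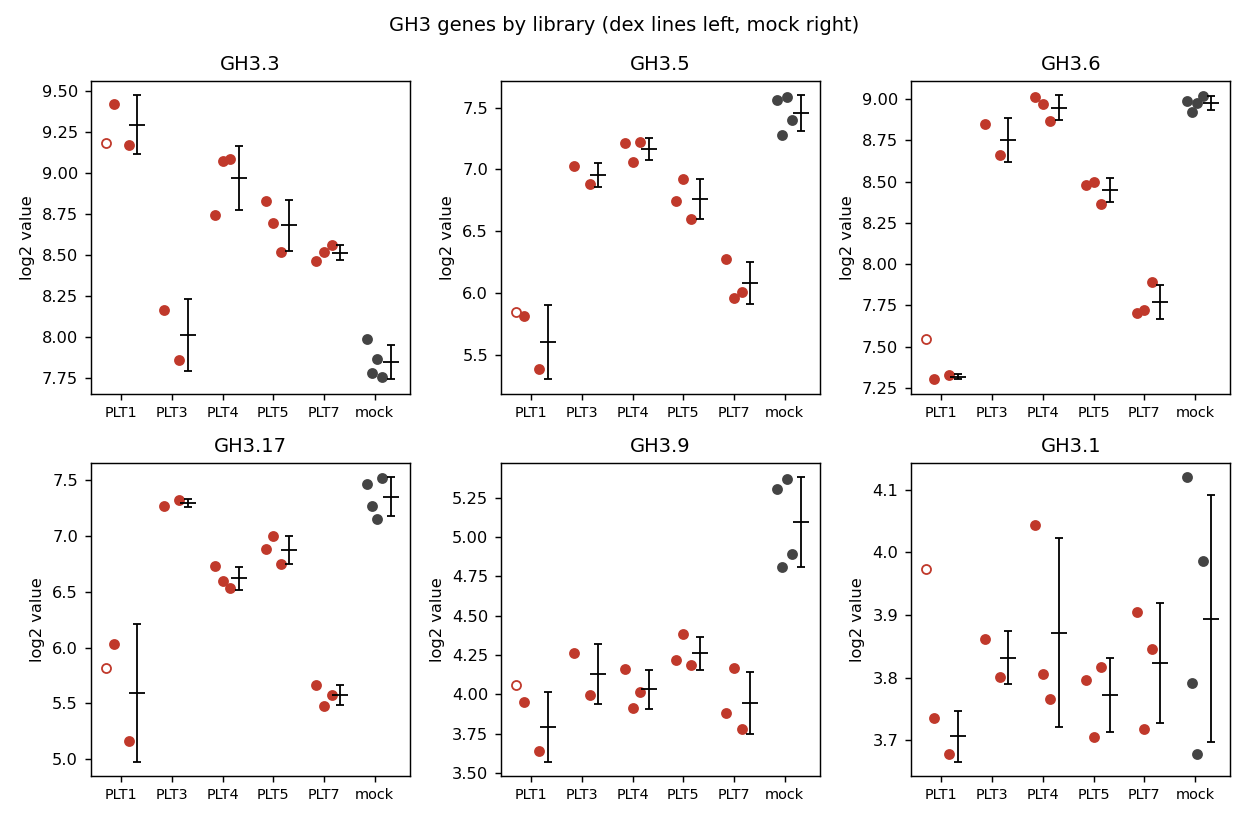
Log2 values by library of the 6 measured GH3 genes, dex lines left of mock, with filled points for the 17 libraries used, open circles for the library labelled PLT1 replicate 3 and dashes with bars for mean ± SD. GH3.3 lay above mock in all lines but PLT3, and GH3.6 stepped down from PLT4 through PLT5 and PLT7 to PLT1.

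The F test compared the 5 dex lines with each other, and mock entered it only through the shared spread estimate. In it 24 of 34 members differed (20 of 28 Aux/IAA and 4 of 6 GH3), beside 36.7% of all probe sets. With all 18 libraries 18 members differed, beside 27.1%, and IAA2, IAA4, IAA8, IAA9, IAA12 and IAA19 no longer passed (adjusted p between 0.078 and 0.504). The 10 members that did not pass were IAA3, IAA5, IAA6, IAA11, IAA31, IAA32, IAA33, IAA34, GH3.1 and GH3.9. Over the 10 pairs of lines, 132 of 340 member-by-pair differences were called, and 93 with all 18 libraries. Of the 132 calls 42 were not made with all 18, and 3 others were added.

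The pairs with most called members were PLT1 against PLT5 (20 of 34, beside 33.8% of all probe sets) and PLT1 against PLT3 (19, beside 23.9%). PLT3 against PLT7 had 17 (beside 16.1%), PLT4 against PLT7 had 16 (beside 18.2%) and PLT5 against PLT7 had 16 (beside 23.8%). PLT1 against PLT4 and PLT1 against PLT7 had 13 each, beside 24.6% and 16.2%. PLT4 against PLT5 had 10 (beside 7.19%), PLT3 against PLT4 had 5 (beside 3.58%) and PLT3 against PLT5 had 3 (beside 2.07%). The fewest differences lay among PLT3, PLT4 and PLT5, for the members as for all probe sets. With all 18 libraries there were 18 called members in PLT1 against PLT5 (beside 25%), 14 in PLT1 against PLT3 (beside 14.8%), 10 in PLT1 against PLT4 (beside 15.4%) and 7 in PLT1 against PLT7 (beside 8.3%). The pairs without PLT1 then had 12 in PLT3 against PLT7 (beside 9.9%), 12 in PLT5 against PLT7 (beside 17.4%), 11 in PLT4 against PLT7 (beside 11.5%), 6 in PLT4 against PLT5 (beside 2.12%), 2 in PLT3 against PLT4 (beside 0.775%) and 1 in PLT3 against PLT5 (beside 0.383%).

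**Figure D5:**
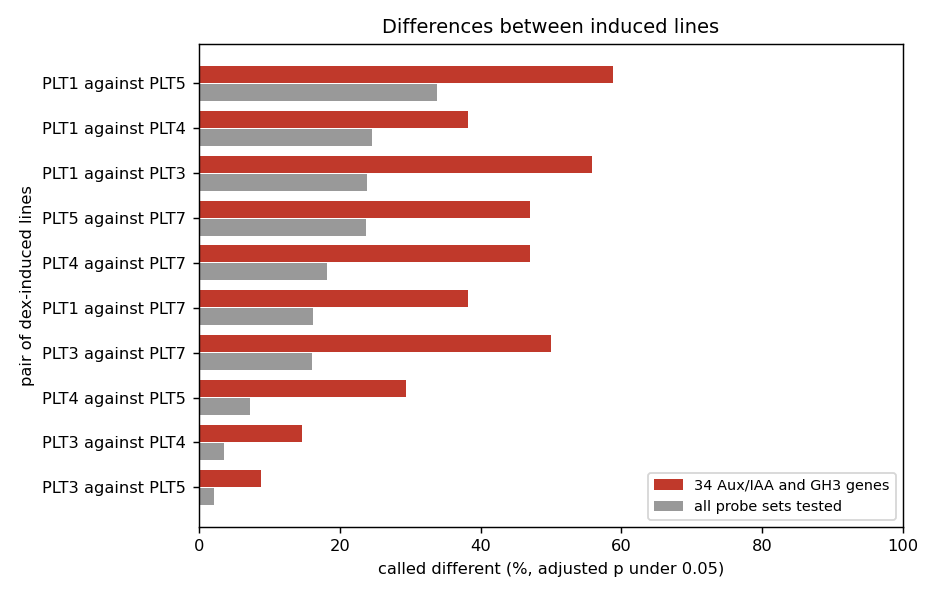
Percentage of the 34 members and of all 21430 probe sets called different in each of the 10 pairs of dex lines. The members ran from 3 of 34 called in PLT3 against PLT5 to 20 of 34 in PLT1 against PLT5.

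Other genes of the auxin pathway were counted in the same mean contrast, beside 50.1% of all probe sets called. Of 6 TIR1/AFB receptors, 1 was higher and 4 were lower, with AFB1 at −0.99 ± 0.06 (adjusted p = 1.21e-10), AFB2 at −0.37 ± 0.06 and AFB3 at −0.31 ± 0.06. Of 3 measured TPL/TPR corepressors, TPR2 was higher (0.38 ± 0.07) and 2 were lower, TPL among them (−0.30 ± 0.06), and with all 18 libraries 1 was lower. Of 15 ARF factors, 5 were higher and 4 lower, with ARF5/MONOPTEROS at 1.16 ± 0.09 (adjusted p = 6.23e-09), ARF16 at 1.08 ± 0.06 (adjusted p = 1.31e-10) and ARF11 at −0.84 ± 0.07 (adjusted p = 3.48e-08).

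Of the 7 other GH3 family genes, 3 were lower with 17 and with 18 libraries and the other 4 were not called. The 3 were GH3.19 (−1.08 ± 0.08), GH3.18 (−0.85 ± 0.14) and DFL2 (−0.66 ± 0.14). Of 3 measured IAA-amido hydrolases, which free auxin from its conjugates, ILL6 was lower (−1.003 ± 0.08, adjusted p = 6.99e-09) and ILL3 higher (0.38 ± 0.08, adjusted p = 0.00107). Of 6 other auxin-inactivating enzymes, UGT74E2 was lower (−0.58 ± 0.20, adjusted p = 0.0195), a call not made with all 18 libraries (adjusted p = 0.218). Among 57 measured SAUR genes, small auxin-up RNAs that promote cell expansion, 6 were higher and 34 lower, with a median change of −0.339. SAUR14 (−3.14 ± 0.10), SAUR16 (−2.40 ± 0.13) and SAUR12 (−2.22 ± 0.10) fell furthest.

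Markers of tissues moved beside these changes. All 3 measured green tissue genes were lower in the mean of the 5 lines, and their summed log2 level was 35.18 to 35.53 in PLT1, 36.09 to 36.22 in PLT3, 35.87 to 36.16 in PLT4, 36.23 to 36.27 in PLT5 and 35.67 to 36.14 in PLT7, against 37.17 to 37.33 in mock. Of 6 root markers, 5 were lower (3 with all 18 libraries), CASP1 of the endodermis by −2.40. Their summed log2 level was 29.14 to 30.11 in PLT1, 32.89 to 32.98 in PLT3, 31.54 to 33.51 in PLT4, 33.02 to 34.08 in PLT5 and 30.08 to 31.90 in PLT7, against 33.65 to 37.23 in mock, so that PLT1 and PLT7 stood lowest. By line, 4 root markers were lower in PLT1, 5 in PLT7 (4 with all 18 libraries) and 2 in each of PLT3, PLT4 and PLT5. Group means of PIN2 were 6.669 in PLT1 and 6.825 in PLT7, but 7.45 to 7.69 in the other lines, against 7.45 in mock. Those of NRT2.1 were 4.87 to 5.10 in the dex lines, against 4.74 in mock. Among the members, PLT1 and PLT7 had the lowest group means for IAA7, IAA14, IAA16, IAA18, IAA26, GH3.5, GH3.6, GH3.9 and GH3.17. Conversely, PLT1 and PLT7 had the highest group means for IAA8, IAA9, IAA10, IAA12, IAA13, IAA17, IAA28 and IAA30. These are ranks of means, and the share of all probe sets with such ranks was not counted. GH3.9 was not called in the F test among the lines (adjusted p = 0.172), nor were IAA8, IAA9 and IAA12 with all 18 libraries. IAA28 in PLT1 (6.51) lay close to PLT5 (6.49). The part of green tissue and root in the members' changes was not tested. Both dry seed markers were lower in the mean of the 5 lines (1 with all 18 libraries). By line, 2 were lower in PLT3 and in PLT4, and 1 in each other line. With all 18 libraries these counts were 1 and 0. The marker CRA1 ranged from 6.11 to 8.64 in mock, and its group mean was 7.67 in PLT5, against 7.69 in mock. The floral genes AP3 and AG, which should be low in seedlings, had group means between 3.51 and 3.62 and between 3.16 and 3.28 (log2) and did not pass (adjusted p = 0.985 and 0.26). With the 5 lines averaged, 2 of 4 clock genes were called above mock and 2 below it (2 and 1 with all 18 libraries). Group means of CCA1 were 4.47 (PLT7) to 5.86 (PLT3), against 7.025 in mock. Those of PRR5 were 5.23 (PLT3) to 7.01 (PLT7), against 4.87 in mock. Mock replicate 4 had CCA1 at 5.88 and LHY at 5.26. The other mock libraries had 7.22 to 7.62 and 6.55 to 7.57. Whether libraries differed in time of day was not tested.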

How the data were processed

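The authors deposited log2 expression values per probe set for every array. The submitters' processing notes name RMA and limma 3.24.15 without saying what each did. RMA adjusts background, brings arrays to a common distribution and compresses differences at low values. No detection calls and no genome build are given in the sources used here, so no coordinates are printed. Of 21494 rows, 64 control rows were left out of the tests. Gene names and neighbours come from the TAIR10.1 gene table, in which all 34 measured members matched.

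Libraries were grouped by their titles. One limma fit (limma 3.58.1 in R 4.3.3) of 17 libraries had 1 coefficient per group and 11 residual degrees of freedom, with moderated tests, two-sided, adjusted by Benjamini-Hochberg over 21430 probe sets within a contrast and called at 0.05. Lines were set against mock singly and as their mean, and against each other in 10 pairs and in an F test.

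The members and lists were chosen with earlier results of these data known. Values of every library are printed for 18 members, namely those whose mean change over the lines was called and at least 0.5 log2, those called in opposite directions in different lines, and the 5 of smallest F test p. Of other pathway lists up to 3 called members of largest change are named.

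On simulated data with 200 changed probe sets of 21430, 92% to 100% of changes of 1 log2 and 51% to 79% of changes of 0.5 log2 were recovered, and 2.94% to 6.13% of calls were false. In the real data 29.3% to 50.8% of probe sets were called in single lines, a far larger share. The simulated rates therefore need not hold for the calls given here. Alternatives were all 18 libraries, leaving out each library, or both PLT5 replicate 3 and PLT7 replicate 1, array weights, a trended and robust variance, quantile normalisation, leaving out dim probe sets, the replicate number as a block and fits of the compared groups alone.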

Additional observations from a re-analysis of the deposited data

Results flagged for a closer look

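IAA1 in mock replicate 1 was at 6.26, set apart from the other 3 mock libraries at 5.90 to 5.94. Chance alone sets apart about 1 in 20 such groups of 4, and 18 members were checked in this way. The PLT2 probe set was at 10.28 in the library labelled PLT1 replicate 3, a gene that no group induces, against 3.67 to 4.06 in mock.

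Members called in opposite directions against mock differed between those lines when the lines were tested directly in limma. This outcome was largely set by the choice of pairs, each of a line above and a line below the same mock libraries. The direct tests therefore give the size of the differences and are not separate evidence for them. IAA29 in PLT1 was −2.44 ± 0.18 log2 against PLT3 (adjusted p = 1.98e-08) and −2.26 ± 0.17 against PLT4 (adjusted p = 1.35e-08). IAA17 in PLT1 was 0.70 ± 0.09 against PLT5 (adjusted p = 1.17e-05), which with all 18 libraries was 0.23 ± 0.25 and not called (adjusted p = 0.537). In PLT5 it was −0.995 ± 0.08 against PLT7 (adjusted p = 1.01e-07, and 0.00952 with all 18 libraries). IAA7 in PLT1 was −0.46 ± 0.09 against PLT4 (adjusted p = 0.000876).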

How the results depend on the processing

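The counts of called members in each line, in the mean and in the F test, and the total over the pairs of lines, stayed within 1.5 times their values under every alternative run. Single pairs of lines moved further with all 18 libraries, with 7 in place of 13 called members in PLT1 against PLT7, 6 in place of 10 in PLT4 against PLT5, 2 in place of 5 in PLT3 against PLT4 and 1 in place of 3 in PLT3 against PLT5. In comparisons without PLT1 the log2 changes were the same in both fits. What differed there was the spread estimate shared by all groups, and with it the p-values. Without PLT5 replicate 3 and PLT7 replicate 1, the total over the pairs was 108. Leaving out 1 library in turn gave 21 to 26 called members in PLT1, 10 to 13 in PLT3, 15 to 19 in PLT4, 11 to 15 in PLT5, 22 to 24 in PLT7, 20 to 22 in the mean of the lines, 21 to 25 in the F test and 117 to 140 of the differences between lines. Of 2243 alternative values of 91 called changes, 2164 kept direction and call, 78 kept direction without passing the threshold and 1 reversed. The reversed value was IAA17 in PLT1, at −0.12 with all 18 libraries, where the library labelled PLT1 replicate 3 is the added one.

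Libraries of the same replicate number in different groups showed no shared deviation (36 pairs, r from −0.16 to 0.24, 4 over 0.1). Pairs of different number were alike (83 pairs, r from −0.18 to 0.18, 12 over 0.1). Deviations were taken within groups of 2 to 4 libraries, so the check is weak and cannot exclude pairing. With the replicate block, 26, 13, 17, 15 and 23 members were called in PLT1, PLT3, PLT4, PLT5 and PLT7, 20 in the mean, 24 in the F test and 134 in the pairs. With the block IAA7 in PLT4 (adjusted p = 0.0684) and GH3.6 in PLT3 (adjusted p = 0.109) did not pass. Leaving out dim probe sets removed 11 members, so that 23 were tested. The lowest values, such as those of IAA31, IAA34 and GH3.1, lie where differences are compressed and small changes may be missed.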
